A study of Mus musculus with 3 samples.

Results

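Brain endothelial cells were taken as the cells that the deposited cell table places in cluster 4 of its clustering at resolution 0.5. There were 295 of them among 4668 cells, or 6.32%. The 3 libraries of the study (cDNA, antibody tags and hashtags) come from 1 pool of 4 mouse brains, so the cDNA of all cells was read in 1 library, in which no cell barcode occurred more than once. The brains were either brains with metastases or naive brains. Both kinds came from female C57Bl/6 mice of 2 to 3 months. Metastases had been started by injecting E0771 cells, a mouse mammary carcinoma line, into the carotid artery, and the brains were taken after about 2 weeks. All mice were perfused, the brains were digested with a papain-based kit and a Percoll gradient was used to enrich immune cells, so endothelial cells are here a population that the preparation did not aim at. Each brain carried its own hashtag antibody. No source used here says which hashtags mark brains with metastases, so the brains are called the hashtag 1, 2, 3 and 4 brains, each is given on its own, and no comparison between conditions was made.

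Endothelial cells line all blood vessels. Those of the brain form the blood-brain barrier: tight junctions seal the gaps between them, little is carried across by vesicles, and transporters supply glucose and amino acids or pump foreign compounds back into the blood. Wnt and beta-catenin signalling keeps these features up. Along the vessel tree the cells grade from arteries through capillaries to veins, and veins are where most leukocytes attach and leave the blood in inflammation.

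Levels below are counts of transcript molecules (UMIs) summed over the cells of a cluster in a brain and divided by all UMIs of those cells, per 10000, with the exact 95% Poisson interval where one is given. That interval covers counting error only and not differences between animals. Values listed for 4 brains are in the order of hashtags 1, 2, 3 and 4. Cluster 4 held 72, 56, 81 and 86 cells of the 4 brains, and 330965, 268210, 544552 and 770405 UMIs. A count of 0 in one of these sums allows a level of up to 0.0906, 0.112, 0.0551 and 0.0389 per 10000 (3 counts of the total). Near-identical copies (Ly6c1 and Ly6c2, the haemoglobin pairs, Hspa1a and Hspa1b, and the classical and Qa-type MHC class I genes) can share reads, and the strand setting of the counting is not known here.

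The cells of cluster 4 were not of 1 kind in depth, and this touches most levels below. The median cell had 3255.5, 3087.5, 4015 and 8891.5 UMIs in the hashtag 1 to 4 brains, with cells from 2507 to 25161. Above 8000 UMIs lay 83 cells (9, 8, 21 and 45 in the 4 brains), and 212 cells lay at or below (63, 48, 60 and 41). In the cells above 8000 UMIs Cldn5 was at 4.89, 2.11, 20.6 and 4.80 per 10000 and Rhox5, a homeobox gene that was highest in clusters 0, 2 and 7, was at 4.46, 4.58, 2.49 and 3.97. In the cells of at most 8000 UMIs Cldn5 was at 27.9, 29.1, 27.6 and 27.4 and Rhox5 at 0.416, 0.503, 0.792 and 0.643. Deep cells thus held less Cldn5 and more Rhox5 per molecule in each brain, least so in the hashtag 3 brain. The S100 protein gene S100a6 showed the same order, at 99.2, 99.2, 61.7 and 80.1 in the deep cells and 11.96, 11.6, 14.6 and 18.6 in the others. The cell's own hashtag made up a median of 62.6, 61.0, 78.4 and 85.7% of its hashtag counts in the deep cells, against 87.1, 92.4, 95.2 and 92.8% in the others. No doublet caller was run, and the part that droplets with 2 cells have in these values was not tested. Counts of genes that differ between the brains, and levels of the main genes among them, are therefore given also for the 212 cells of at most 8000 UMIs. So are most list counts of genes higher than in other cells. This limit was chosen after seeing the data.

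**Figure D1:**
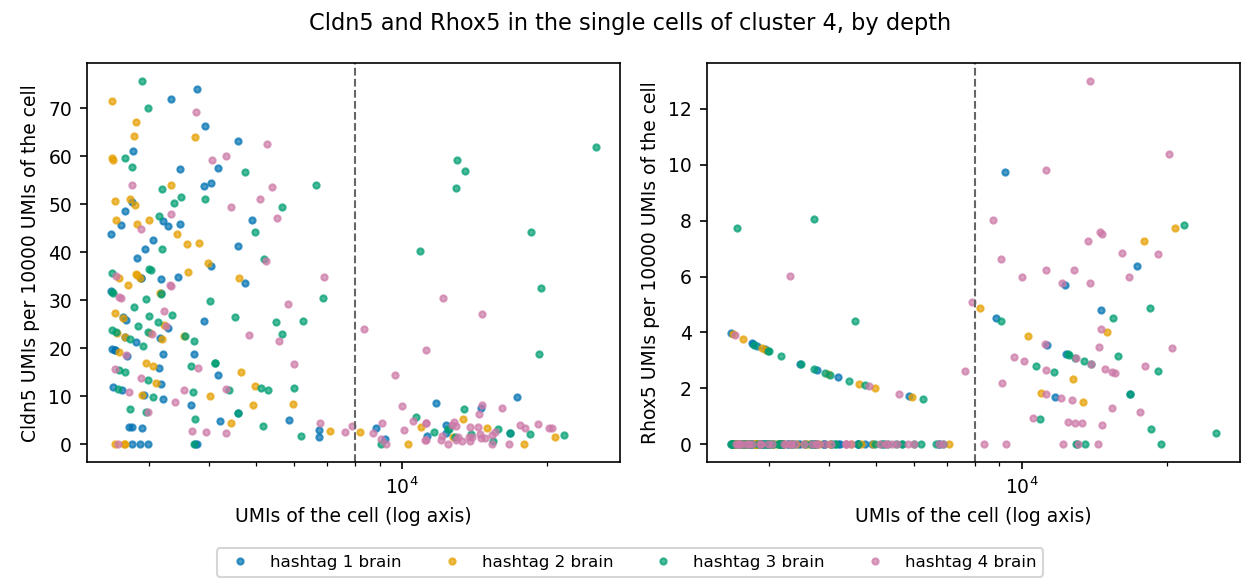
Each point is 1 of the 295 cells of cluster 4, coloured by its hashtag; the x axes give the UMIs of the cell on a log scale, the y axes give Cldn5 (left) and Rhox5 (right) UMIs per 10000 UMIs of the cell, and the dashed line marks 8000 UMIs. To the right of the line most cells are low in Cldn5 and hold Rhox5, apart from some cells of the hashtag 3 brain that are high in Cldn5.

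The 3 markers of the endothelial label were high in cluster 4 as a whole. The clusters were made from these genes, so this describes the cluster and does not test the label. Most of the deep cells were low in Cldn5, as given above. Cldn5, the main tight junction protein of brain endothelium, was at 19.97, 18.1, 23.5 and 9.81 per 10000 in cluster 4 of the hashtag 1 to 4 brains (intervals 18.5 to 21.6, 16.5 to 19.8, 22.3 to 24.8 and 9.13 to 10.5). In all other cells of the same brains it was at 0.615, 0.783, 0.476 and 0.446, and over the 10 other clusters it ranged from 0.370 to 0.738. Ly6c1, a surface protein gene of brain endothelium, was at 16.7, 16.0, 18.3 and 6.71 in cluster 4, against 0.855, 0.933, 0.581 and 0.600 in all other cells. Its near copy Ly6c2 was at 0.277 in cluster 4 and at 6.65 and 11.3 in the CD45-tagged clusters 3 and 6, so the counting kept the pair apart at least in part. Flt1, the VEGF receptor 1 gene, was at 8.37, 6.93, 4.24 and 2.82 in cluster 4, against 0.238, 0.283, 0.103 and 0.131 in all other cells. For all 3 markers every brain's cluster 4 level was above that of every brain's other cells.

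Detection per cell gave the same order at equal depth. With each cell thinned to 2507 UMIs, 84.7, 82.1, 95.1 and 67.4% of cluster 4 cells held a Cldn5 UMI. In cluster 9, the smooth muscle-like cells, the shares were 9.09, 7.14, 19.4 and 14.5% (1 cell was too shallow to thin), and in cluster 1, the choroid plexus epithelium-like cells, 13.7, 14.1, 15.5 and 9.41%. The last 2 sets are shares in cells that should lack the gene and serve as the background of free RNA. For Flt1 the shares were 83.3, 75, 59.3 and 51.2% in cluster 4, against 3.03, 14.3, 3.23 and 7.23% in cluster 9. The 14 endothelial markers examined summed to 89.5, 78.4, 74.2 and 38.5 per 10000 in cluster 4, against 4.51, 4.94, 3.64 and 3.78 in all other cells.

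**Figure D2:**
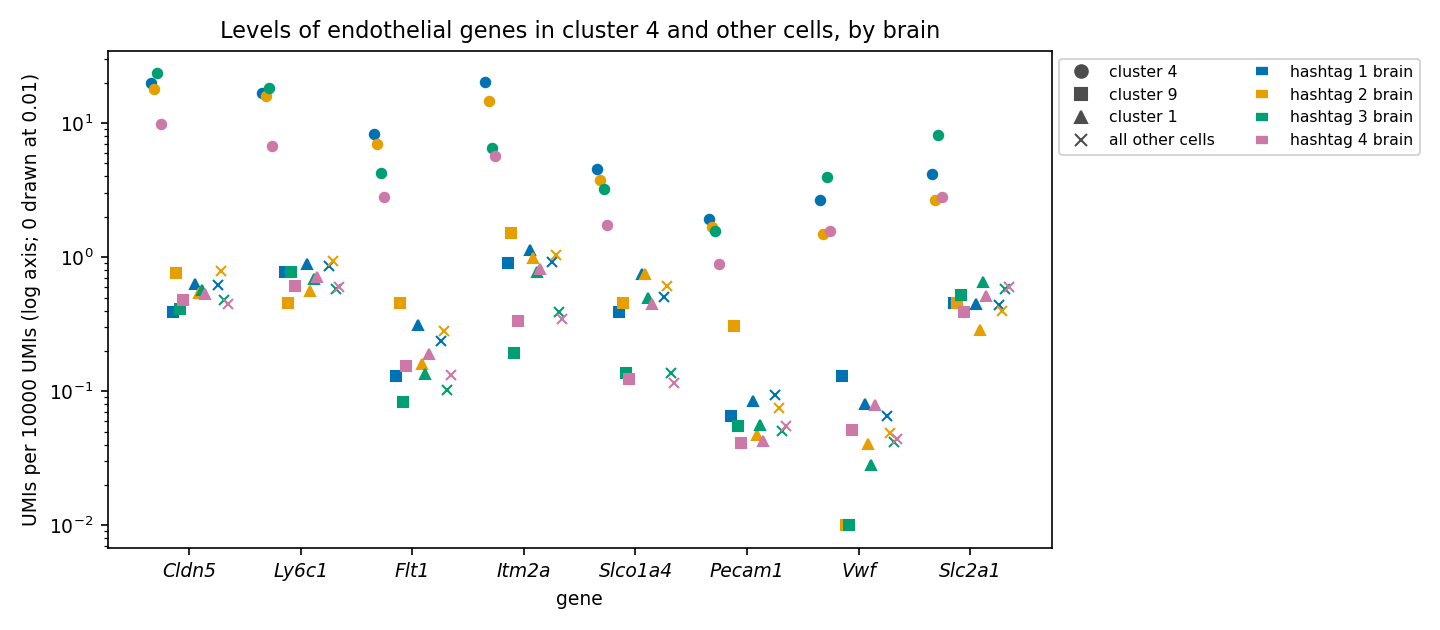
UMIs per 10000 UMIs on a log axis for 8 endothelial genes, with 1 point per brain (colour) for cluster 4 (circles), cluster 9 (squares), cluster 1 (triangles) and all other cells (crosses). The cluster 4 circles lie above every other symbol of the same gene, for Cldn5 at 9.81 or more against 0.783 or less in all other cells.

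Most marker sums of other cell types were low in cluster 4 beside the endothelial sum, but several were above those of all other cells. Prox1 (the factor that sets lymphatic endothelium), Rbfox3 (neurons), Treml1 (platelets) and Epcam (epithelium) were at 0. The 5 immune markers summed to 2.87, 1.98, 2.31 and 1.82 per 10000 in cluster 4, against 10.4, 6.22, 4.32 and 4.27 in all other cells, and Ptprc, the CD45 gene, was at 0.181, 0.0746, 0.129 and 0.0519. The 8 pericyte markers summed to 5.11, 6.52, 2.42 and 1.19 in cluster 4, against 0.978, 0.761, 0.596 and 0.638 in all other cells, and 64 of 295 cells held at least 2 of these UMIs. The smooth muscle markers summed to 3.69, 3.91, 1.69 and 1.10, against 2.32, 2.18, 1.43 and 1.71 in all other cells. Those of fibroblasts, astrocytes, neurons, lymphatic endothelium and platelets summed to at most 1.75 in any brain. Neuron markers, which include the artery gene Stmn2, were at 0.514, 1.53, 0.569 and 0.493, against 0.170, 0.115, 0.399 and 0.353. Fibroblast markers were at 0.665, 1.42, 0.110 and 0.195, against 0.629, 0.553, 0.370 and 0.386. Astrocyte markers were at 0.574, 1.75, 0.533 and 0.273, against 0.589, 0.739, 0.292 and 0.290. Microglia markers summed to at most 1.52. Pericytes sit on the outer face of capillaries, and their part in the levels below was not tested. The choroid plexus transport protein gene Ttr was the most abundant gene of cluster 4 outside mitochondrial and ribosomal genes, at 582, 651, 258 and 196, against 1997, 2566, 480.1 and 339 in all other cells, and it was above 100 per 10000 in each of the 11 clusters. The other abundant genes were Malat1, Tmsb10, Fth1, Actb, Gm10076, S100a6, Tmsb4x, Eef1a1 and Lgals1. The 5 carcinoma line markers summed to 3.08, 4.06, 2.92 and 5.46 in cluster 4, against 3.09, 3.18, 7.35 and 7.47 in all other cells, and to 1.34, 1.64, 1.28 and 1.70 in the cells of at most 8000 UMIs. Haemoglobin gene counts in cluster 4 came from few cells: 571 of 616 Hbb-bs UMIs of the hashtag 2 brain lay in 1 cell.

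The share of endothelial cells differed between the brains. Cluster 4 held 8.53, 13.7, 5.85 and 4.24% of the cells of the 4 brains. The exact 95% bounds (Clopper-Pearson) were 6.73 and 10.6, 10.5 and 17.4, 4.67 and 7.22, and 3.40 and 5.21. The interval of the hashtag 2 brain met only that of the hashtag 1 brain, barely. Clusters 0, 2 and 7, in which Rhox5 was at 4.83, 5.25 and 5.42 per 10000, held 11.1, 10.7, 56.7 and 61.8% of the cells of the 4 brains. Among the cells outside these 3 clusters the endothelial share was 9.6, 15.3, 13.5 and 11.1%, with intervals that all overlapped. These shares include the deep cells of cluster 4. Among all cells of at most 8000 UMIs the share was 8.65, 15.1, 13.2 and 7.26%. There the interval of the hashtag 4 brain (5.26 to 9.72) lay below those of the hashtag 2 (11.3 to 19.5) and hashtag 3 (10.2 to 16.6) brains. A share says how many cells passed the preparation, and the Percoll step and the number of other cells loaded cannot be told apart from the number of endothelial cells in the tissue.

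A gene was counted as higher in cluster 4 when its level was at least 2-fold that in all other cells of the same brain, after adding 0.1 per 10000 to both, in each of the 4 brains. This is a description with no test, since the clusters were made from these genes. The rule took 225 of 14111 genes (1.59%), and 8 genes (0.0567%) were lower by the same measure. Against cluster 9 alone it took 168 of 9489 genes (1.77%), and against cluster 1 alone 455 of 11619 (3.92%). With only the cells of at most 8000 UMIs on the cluster 4 side it took 456 of 14070 (3.24%). The 10 genes with the largest fold in their weakest brain were Cldn5 (18.2-fold), Itm2a (12.9), Flt1 (12.6), Vwf (10.7), Esam (10.2), Ly6c1 (9.73), Ptprb (9.46), Cd200 (9.01), Tmem252 (8.82) and Cd93 (8.19). Against cluster 9 alone Ly6a (5.67-fold against all other cells), S1pr1 (6.28), the receptor gene for sphingosine-1-phosphate, and Slco1a4 (5.48) also ranked among the first 10. Cd200 did not hold against cluster 9, where its weakest brain gave 0.887-fold.

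General endothelial genes made up the set with the highest share. Of 20 members 19 met the rule, and the median member had a log2 ratio to all other cells of 2.98, averaged over the brains, against 0.03 over all genes tested. The angiopoietin receptor gene Tek, the adhesion gene Pecam1, the VE-cadherin gene Cdh5 and the ETS factor genes Erg and Fli1 were among them. Pecam1 was at 1.93, 1.68, 1.56 and 0.896 in cluster 4, against 0.0932, 0.0752, 0.0502 and 0.0547 in all other cells. Itm2a, a membrane protein gene, was at 20.4, 14.7, 6.54 and 5.69 in cluster 4, against 0.923, 1.04, 0.387 and 0.347. The exception was Sox7, whose weakest brain gave 1.89-fold. In the cells of at most 8000 UMIs 20 of 20 members met the rule. Over all genes 1.59% met it, and 3.24% with only those cells on the cluster 4 side.

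Among junction genes 7 of 18 members met the rule, against 1.59% of all genes (median log2 ratio 0.96): Cldn5, Tjp1, Jam2, Esam, Cdh5, Lsr and Pecam1. In the cells of at most 8000 UMIs 8 of 18 did, against 3.24%. Tjp1, the scaffold protein ZO-1, was at 1.72, 2.24, 1.76 and 1.14 in cluster 4, against 0.284, 0.332, 0.305 and 0.370 in all other cells. Ocln, the gene of occludin, was at 0.786, 0.671, 0.643 and 0.286 in cluster 4, against 0.394, 0.420, 0.0888 and 0.0724, and missed the rule in the brains with hashtags 1 and 2. Cldn2, a claudin gene of leaky epithelium, lay the other way and was at 0.212, 0.149, 0.0551 and 0.0389 in cluster 4, against 0.885, 1.504, 0.149 and 0.136.

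Among 28 genes of barrier transport 11 met the rule, against 1.59% of all genes (median log2 ratio 1.27): Slc2a1, Slco1a4, Slc7a1, Slc38a5, Slc40a1, Slc9a3r2, Abcb1a, Abcg2, Slc6a6, Pglyrp1 and Bsg. In the cells of at most 8000 UMIs 17 of 28 did, against 3.24%. The glucose transporter gene Slc2a1 was at 4.17, 2.68, 8.23 and 2.79 in cluster 4, against 0.438, 0.398, 0.576 and 0.599 in all other cells. Slco1a4, an organic anion transporter gene, was at 4.53, 3.77, 3.25 and 1.75, against 0.508, 0.606, 0.136 and 0.116. The efflux pump genes Abcb1a (P-glycoprotein) and Abcg2 were at 1.81, 1.16, 1.18 and 0.675 and at 3.14, 2.20, 1.73 and 0.961, and in all other cells neither passed 0.224. Cluster 4 thus held import and efflux genes together. Mfsd2a, whose lipid carrier protein restrains vesicle transport in brain endothelium, was at 0.332, 0.261, 0.165 and 0.104, against 0.0210, 0.0398, 0.0308 and 0.0283, and its weakest brain gave 1.59-fold.

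Of 20 tested regulators of Wnt signalling and of the barrier, 5 met the rule (median log2 ratio 0.71): the Wnt-activated factor Lef1, the Wnt inhibitor Nkd1, the Norrin co-receptor Tspan12 and the forkhead factors Foxf2 and Foxq1. Foxq1 was at 1.63, 1.34, 1.18 and 0.766 in cluster 4, against 0.0443, 0.0486, 0.0266 and 0.0153 in all other cells. Plvap, the protein of fenestral diaphragms, which barrier endothelium mostly lacks, was at 0.181, 0.671, 0.0735 and 0.0519, against 0.0443, 0.0354, 0.0181 and 0.0126, and did not meet the rule. In the caveolae and fenestrae set 1 of 9 genes did (Sdpr, also called Cavin2; median log2 ratio 1.18). The VEGF, TIE and Notch set had 5 of 19 (Flt1, Kdr, Nrp1, Tek and Tie1; median log2 ratio 1.18), and the tip cell set of sprouting vessels had 1 of 15 (Kdr; 0.73). In the cells of at most 8000 UMIs the Wnt and barrier set had 7 of 20 and the caveolae and fenestrae set 3 of 9. The VEGF, TIE and Notch set had 9 of 19 there and the tip cell set 3 of 14. Over all genes 1.59% met the rule, and 3.24% with only those cells.

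**Figure D3:**
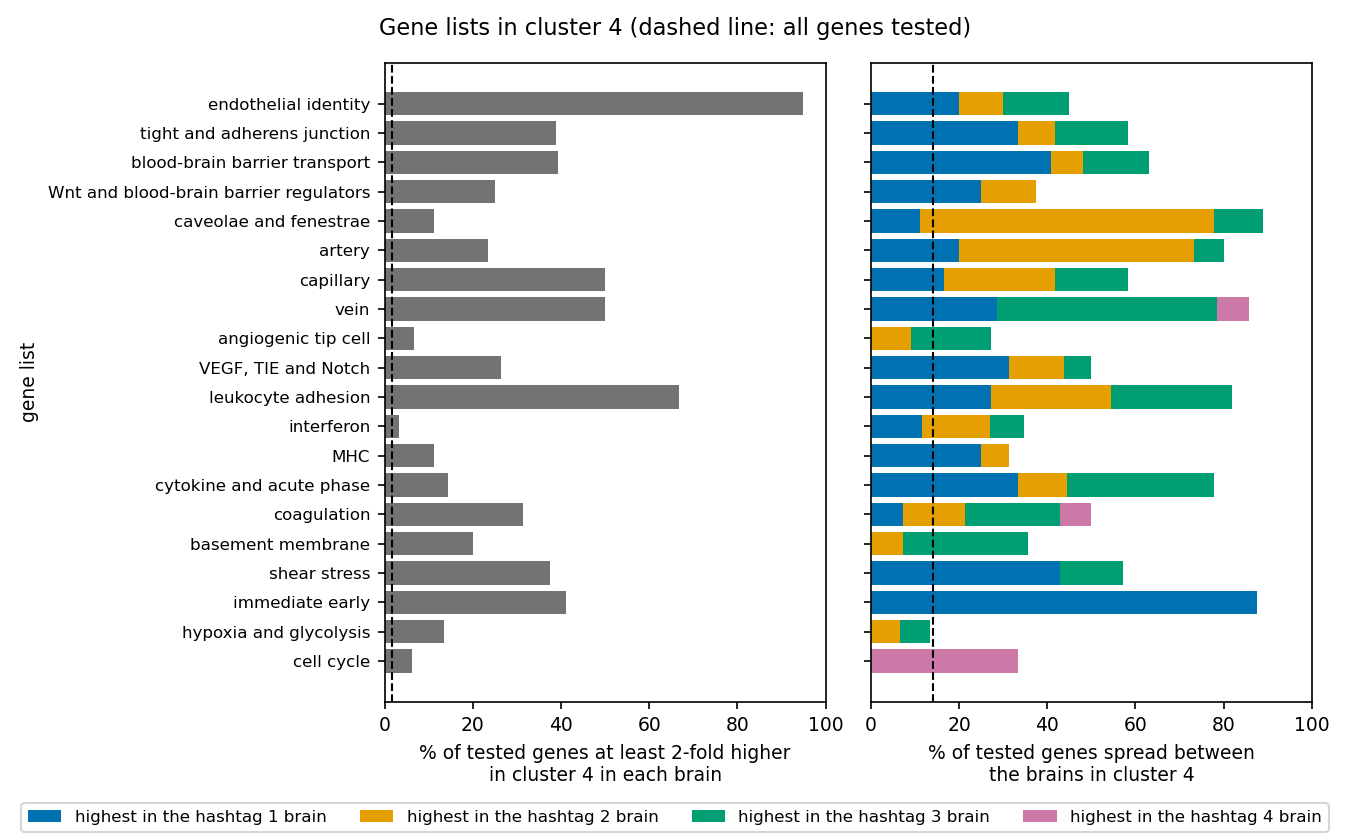
For each of the 20 gene lists, the left panel gives the percentage of its tested genes at least 2-fold higher in cluster 4 than in all other cells in each brain, and the right panel the percentage spread between the brains within cluster 4, coloured by the brain with the highest level. The dashed lines mark all genes tested, at 1.59% and 14.1%. The endothelial identity list reaches 19 of 20 on the left, and on the right the immediate early list (14 of 16, each highest in the hashtag 1 brain) lies far above the line.

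Within cluster 4 the 4 brains differed for many genes. A gene was counted as spread when the interval of its highest brain lay wholly above that of its lowest brain and the levels differed at least 2-fold. The rule took 1087 of 7725 genes with at least 20 UMIs (14.1%), of which 304 (3.94%), 310 (4.01%), 244 (3.16%) and 229 (2.96%) were highest in the hashtag 1, 2, 3 and 4 brains. In the cells of at most 8000 UMIs it took 536 of 4791 genes (11.2%), 372 of them also among the 1087, and 2.17, 3.17, 3.63 and 2.21% were highest in the hashtag 1, 2, 3 and 4 brains. The share over all genes includes genes with few UMIs, which meet the rule less easily than well counted genes. The intervals cover counting error, and 4 animals of unknown condition give no test. The lists below were chosen with earlier results of these data known. Their counts beside the share over all genes are descriptions and no test.

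The largest distances belonged to Lcn2, which encodes lipocalin 2, a secreted iron-siderophore binding protein of the acute phase response. Lcn2 was at 2.87, 0.373, 57.7 and 1.91 in cluster 4 (intervals 2.32 to 3.51, 0.179 to 0.686, 55.7 to 59.8 and 1.61 to 2.24), against 3.97, 0.615, 0.441 and 0.390 in all other cells. Among cells of at most 8000 UMIs it was at 4.25, 0.377, 126 and 5.79. The hashtag 3 brain stood alone on both. It was not the work of few cells there: 58 of 81 cells held a Lcn2 UMI and 35 held 10 or more, against 1, 0 and 2 such cells in the hashtag 1, 2 and 4 brains. A single cell held 42.1% of the Lcn2 UMIs of the hashtag 1 brain, and another 54.4% of those of the hashtag 4 brain. At equal depth 27.8, 8.93, 61.7 and 15.1% of cluster 4 cells held a Lcn2 UMI. In cluster 1 the shares were 10.3, 8.25, 7.73 and 6.93%, so the hashtag 2 brain was at the background. The neutrophil markers summed to 18.7, 4.25, 4.17 and 4.65 in cluster 4, against 189.9, 14.5, 9.98 and 7.95 in all other cells. The only other cluster with much Lcn2 was cluster 6, at 18.6 per 10000, where the neutrophil granule gene S100a8 was at 513. In cluster 4 S100a8 was at 10.6, 2.20, 2.19 and 2.18. The part that neutrophil RNA has in the Lcn2 counts of cluster 4 was not tested.

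Ctla2a, a cysteine protease inhibitor gene, was at 4.05, 2.83, 72.8 and 8.90 in cluster 4, against 0.503, 0.734, 0.532 and 0.416 in all other cells. Ackr1, which encodes a chemokine-binding receptor of venules, was at 3.57, 0.298, 17.8 and 2.17, against 0.128, 0.0708, 0.0653 and 0.0649. Lrg1, a secreted leucine-rich glycoprotein gene, was at 1.45, 0.186, 8.58 and 3.88, against 0.296, 0.0619, 0.0894 and 0.0704. For these 3 genes the hashtag 3 brain was highest and the hashtag 2 brain lowest. In the cells of at most 8000 UMIs the hashtag 4 brain came second for all 3, with Ctla2a at 6.00, 4.53, 115 and 27.5, Ackr1 at 5.45, 0.503, 27.7 and 8.83, and Lrg1 at 2.22, 0.252, 13.6 and 12.4. The growth factor gene Csf3, which drives neutrophil production, was at 0.181, 0, 1.47 and 0.130, with no UMI in the hashtag 2 brain.

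Gkn3, a gene of arterial endothelium in the mouse brain, had the opposite order. It was at 1.78, 6.19, 0.0735 and 0.402 in cluster 4 (intervals 1.36 to 2.3, 5.28 to 7.21, 0.0200 to 0.188 and 0.273 to 0.571), against 0.1398, 0.115, 0.0641 and 0.0818 in all other cells. Without the deep cells it was at 2.36, 10.1, 0.132 and 0.643. The hashtag 2 brain was highest, and the hashtag 3 brain lay near the level of other cells. At equal depth 18.1, 35.7, 2.47 and 8.14% of cluster 4 cells held a Gkn3 UMI, against 2.75, 0.971, 2.21 and 3.47% in cluster 1. Large distances were also found for the haemoglobin genes Hbb-bs and Hba-a2 and for Gm7120 (0.0302, 0.0746, 2.11 and 0.857). Gm7120 was at 1.47 and 1.27 in all other cells of the hashtag 3 and 4 brains and at 0.0462, 0.0629, 0.0880 and 0 in the cluster 4 cells of at most 8000 UMIs.

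**Figure D4:**
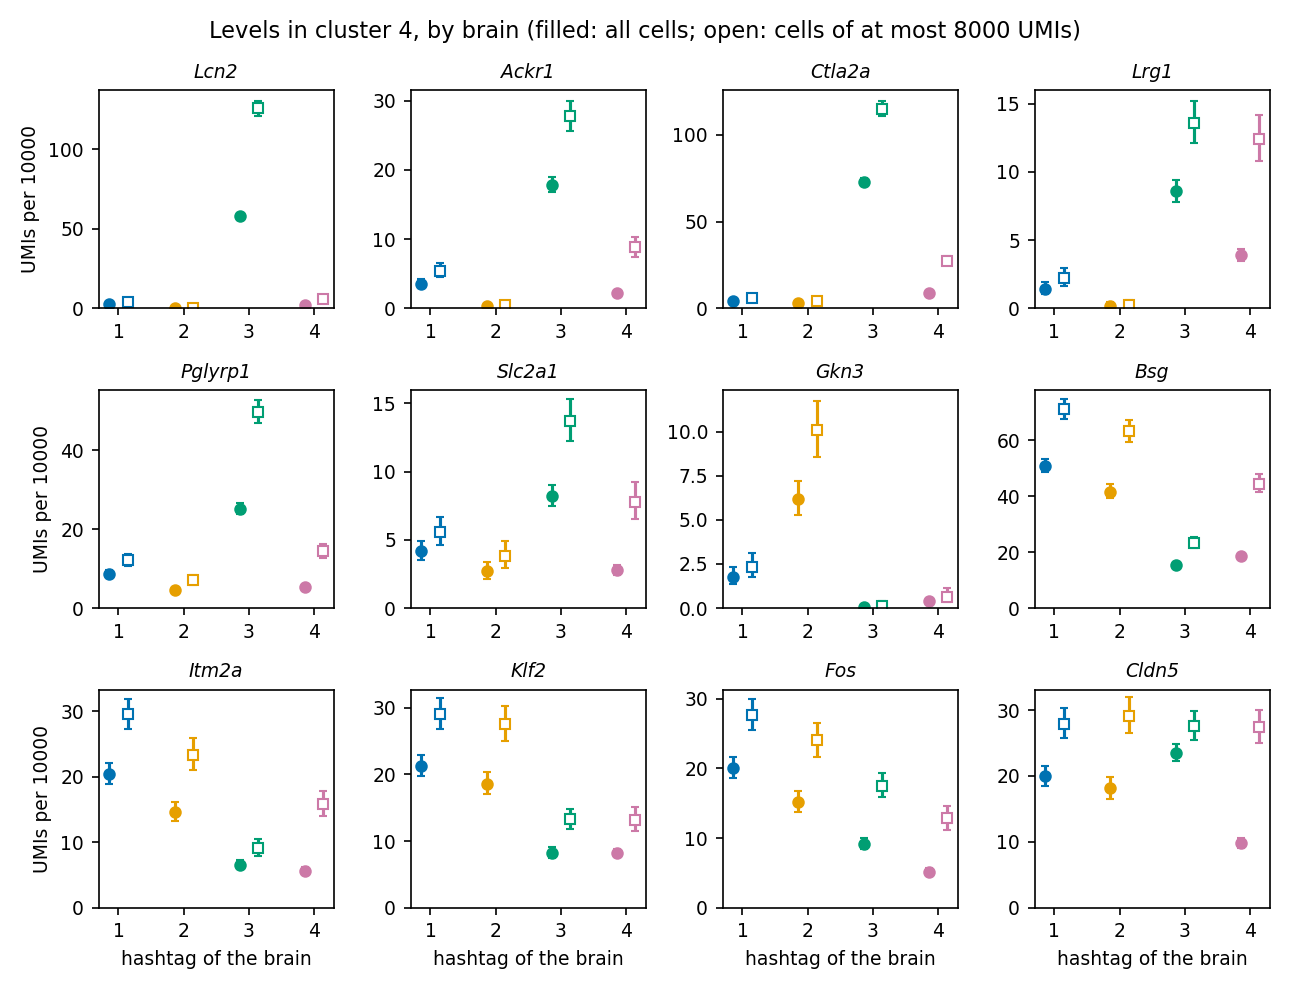
Levels in cluster 4 of 12 genes in UMIs per 10000 (y axes, linear, each with its own scale), by the hashtag of the brain (x axes), for all cells (filled circles) and for cells of at most 8000 UMIs (open squares), with exact 95% Poisson intervals. Lcn2, Ackr1, Ctla2a, Lrg1, Pglyrp1 and Slc2a1 are highest in the hashtag 3 brain, Gkn3 in the hashtag 2 brain, and Bsg, Itm2a, Klf2 and Fos in the hashtag 1 brain, while Cldn5 is nearly level in the cells of at most 8000 UMIs.

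Barrier genes did not share an order of the brains. Of 27 transport genes 17 were spread, against 14.1% of all genes, 11 of them highest with hashtag 1 and 4 with hashtag 3. Highest in the hashtag 3 brain were Slc2a1, the lactate carrier gene Slc16a1 (0.544, 0.597, 1.52 and 0.727), the amino acid carrier gene Slc7a5 (1.45, 1.23, 2.20 and 0.857, not spread in the cells of at most 8000 UMIs) and the peptidoglycan recognition gene Pglyrp1. Slc2a1 was at 5.59, 3.84, 13.7 and 7.78 in the cells of at most 8000 UMIs. Pglyrp1 was at 8.58, 4.51, 25.2 and 5.27 in cluster 4, against 2.67, 0.876, 0.442 and 0.384 in all other cells. The basigin gene Bsg and the taurine carrier gene Slc6a6 lay the other way, Bsg at 50.9, 41.6, 15.3 and 18.7 and Slc6a6 at 8.01, 7.68, 2.31 and 1.74. Both pumps were spread over all cells but not in the cells of at most 8000 UMIs, where Abcb1a was at 2.63, 1.76, 2.07 and 1.64 and Abcg2 at 4.39, 3.33, 2.99 and 2.87. There, 10 of 26 transport genes were spread, against 11.2% of all genes. Of 12 junction genes 7 were spread, and 2 in the cells of at most 8000 UMIs, Jam2 and Cdh5; Cldn5 differed by less than its counting intervals there. Of 16 Wnt and barrier regulators 6 were spread, and 0 of 13 in the cells of at most 8000 UMIs.

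Genes of the vein list were spread in 12 of 14 cases, against 14.1% of all genes. In the cells of at most 8000 UMIs 11 of 13 were spread, against 11.2%. Of all genes 3.16% were spread and highest with hashtag 3 over all cells, and 3.63% in the cells of at most 8000 UMIs. Over all cells 7 of the 12 were highest with hashtag 3, 4 with hashtag 1, 1 with hashtag 4 and 0 with hashtag 2, and of the 11 there were 6, 3, 2 and 0 in the same order of hashtags. The vein list was chosen with earlier results of these data known. It holds Lcn2, Ackr1 and Lrg1, which are among the 10 genes with the largest distance between the brains, so its count is no test. In all 7 of 14 met the rule against all other cells (median log2 ratio 2.28), against 1.59% of all genes. In the cells of at most 8000 UMIs 9 of 14 did, against 3.24%. Vcam1, which binds leukocyte integrins, was at 10.8, 4.06, 6.50 and 2.75 in cluster 4, against 1.44, 1.89, 0.262 and 0.247 in all other cells. Vwf, the von Willebrand factor gene, was at 2.66, 1.49, 3.95 and 1.57, against 0.0652, 0.0486, 0.0417 and 0.0437. Slc38a5, a glutamine carrier gene of veins, was highest in the hashtag 1 brain, at 2.57, 0.485, 0.900 and 0.935. Over all cells the hashtag 2 brain was the lowest for Slc38a5 and Vwf, and in the cells of at most 8000 UMIs for Vwf alone, with Slc38a5 at 3.88, 0.818, 0.660 and 2.81.

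Artery genes ran the other way. Over all genes 14.1% were spread, and 4.01% were spread and highest in the hashtag 2 brain. In the cells of at most 8000 UMIs these shares were 11.2 and 3.17%. Of 15 artery genes tested 12 were spread, 8 of them highest in the hashtag 2 brain. The list holds Gkn3, which is also among the 10 genes with the largest distance between the brains. In the cells of at most 8000 UMIs 4 of 12 were spread, all 4 highest in that brain (Gkn3, Fbln5, Alpl and Stmn2). Against all other cells 4 of 17 met the rule (Mgp, Stmn2, Edn1 and Tm4sf1; median log2 ratio 1.37). In the cells of at most 8000 UMIs 8 of 17 did. Over all genes 1.59% met the rule, and 3.24% with only those cells. The phosphatase gene Alpl was at 0.514, 0.746, 0.0184 and 0.156 in cluster 4, against 0.0513, 0.0398, 0.0302 and 0.0165 in all other cells. Of 12 capillary genes 7 were spread (5 of 12 at 8000 UMIs or fewer) and 6 met the rule (8 of 12 at 8000 UMIs or fewer; median log2 ratio 1.54). The chemokine gene Cxcl12 was at 2.39, 2.91, 0.679 and 0.999, and the proteoglycan gene Spock2 at 3.87, 4.03, 1.08 and 1.22. Both were lowest in the hashtag 3 brain. In the caveolae and fenestrae list 8 of 9 were spread, 6 highest in the hashtag 2 brain, and in the cells of at most 8000 UMIs 5 of 8, with 3 highest there. The general endothelial list had 9 of 20 spread (4 of 20 in the cells of at most 8000 UMIs), the VEGF, TIE and Notch list 8 of 16 (3 of 10) and the tip cell list 3 of 11 (2 of 5). A lower share of one vessel type among the cells and a lower level per cell cannot be told apart in these sums.

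Cell by cell, 9 genes picked from the vein list went together. Over the 212 cells of at most 8000 UMIs, thinned to equal depth, Spearman's rho was computed within each brain between 32 genes, and the median of the 4 brains is given, or of 3 brains for pairs with the artery gene Bmx, which had no value in the hashtag 4 brain. These points share 1 library, so the values are descriptions. The 32 genes held 9 of the 14 vein list genes, 8 of the 17 measured artery genes and 7 of the 12 capillary genes. The other members of these lists were not correlated. All 36 pairs among the 9 vein genes had a positive median rho, with a median of 0.43 over the pairs. Of 72 pairs of a vein gene with an artery gene 66 were negative (median -0.13). Among 8 artery genes 25 of 28 pairs were positive (median 0.17), and among 7 capillary genes 14 of 21 (median 0.03). Ackr1 and Lrg1 gave the highest value of all, 0.77, from 0.56 to 0.85 over the brains. Icam1 and Vcam1, both adhesion genes for leukocytes, gave 0.65 (0.11 to 0.73). Lcn2 gave 0.44 with Ackr1, 0.58 with Vcam1 and 0.57 with Icam1, and its lowest brain gave -0.09, -0.06 and 0.05 with them. Sparse counts limit the artery values.

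**Figure D5:**
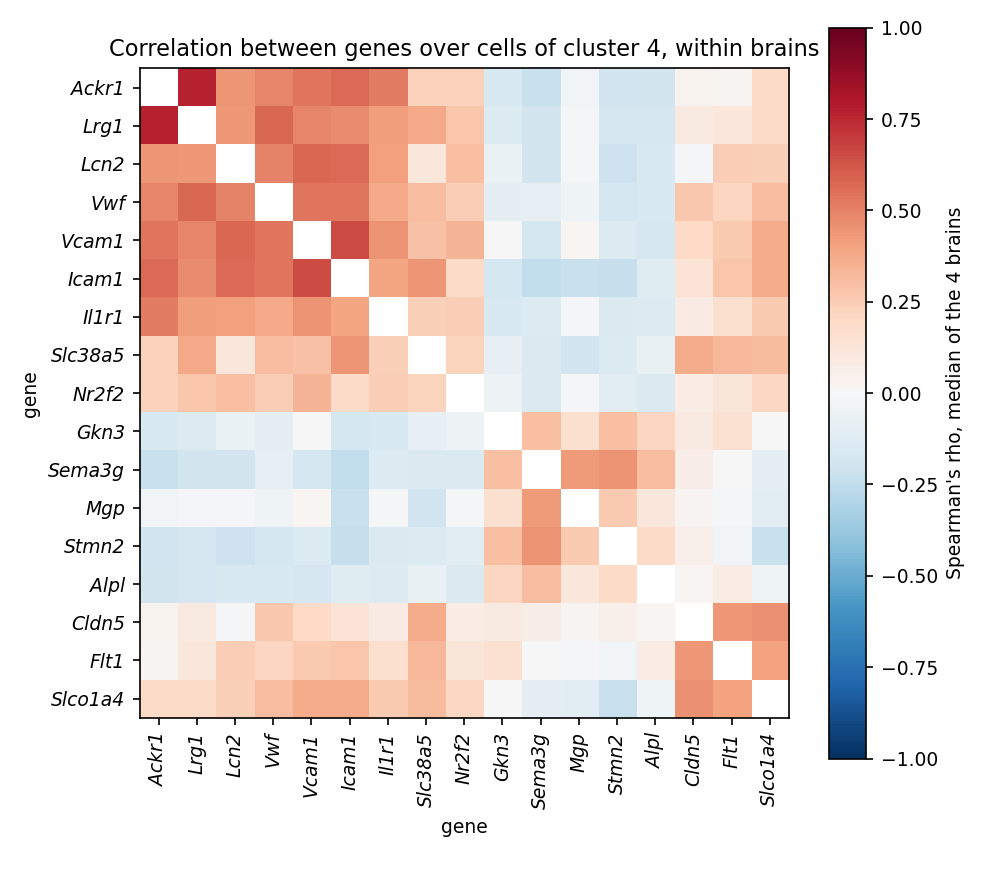
Spearman's rho between 17 genes over cells of cluster 4 of at most 8000 UMIs, thinned to equal depth, computed within each brain and shown as the median of the 4 brains (colour scale from -1 to 1). Vein genes from Ackr1 to Nr2f2 form a block of positive values with 0.77 for Ackr1 and Lrg1, and the artery genes from Gkn3 to Alpl form a weaker one.

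The cells with an Ackr1 UMI were set beside those without, a split chosen after the correlations were seen. Of the cells of at most 8000 UMIs there were 18, 5, 31 and 16 cells with and 45, 43, 29 and 25 cells without in the 4 brains. Lrg1 was at 7.21, 1.60, 24.5 and 28.4 per 10000 in cells with Ackr1, against 0.131, 0.0713, 1.22 and 1.48 in cells without. Vcam1 was at 36.8, 23.5, 20.5 and 20.03, against 7.92, 4.42, 4.33 and 1.87. Since the split follows from those correlations, it describes the same cells in levels and adds no support to them. Lcn2 was at 6.27, 1.07, 208 and 13.4 in cells with Ackr1, against 3.40, 0.285, 31.7 and 0.591 in cells without. Ctla2a was at 6.90, 14.9, 153 and 49.3, against 5.63, 3.14, 72.1 and 12.6. Slc2a1 in the hashtag 3 brain was at 13.6 in cells with Ackr1 and 13.8 in cells without. A cell without an Ackr1 UMI may still express the gene, so the split does not separate vein cells from others. Cldn5 was at 38.7, 32.0, 26.7 and 33.9, against 23.4, 28.7, 28.6 and 22.9.

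Lcn2, Ackr1 and Lrg1 were each highest in the hashtag 3 brain. In the cells of at most 8000 UMIs Lrg1 was nearly as high with hashtag 4 (12.4) as with hashtag 3 (13.6). Cldn5 was nearly level between the brains in those cells. The promoters of Lcn2, Ackr1 and Lrg1 are shown beside that of the marker gene Cldn5. Each is the 250 bases before the start of the gene on its own strand, from RefSeq on GRCm38.p6, at chr16:18776597-18776846 (Cldn5, plus strand), chr2:32387740-32387989 (Lcn2, minus), chr1:173333504-173333753 (Ackr1, minus) and chr17:56121947-56122196 (Lrg1, minus). Capitals mark AGGAAG and its reverse complement CTTCCT, a core that ETS factors such as Erg and Fli1 can bind.
Cldn5: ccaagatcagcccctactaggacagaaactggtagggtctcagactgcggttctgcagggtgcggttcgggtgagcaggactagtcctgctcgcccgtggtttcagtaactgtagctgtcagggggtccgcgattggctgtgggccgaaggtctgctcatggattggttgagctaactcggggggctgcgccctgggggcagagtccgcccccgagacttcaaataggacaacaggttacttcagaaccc
Lcn2: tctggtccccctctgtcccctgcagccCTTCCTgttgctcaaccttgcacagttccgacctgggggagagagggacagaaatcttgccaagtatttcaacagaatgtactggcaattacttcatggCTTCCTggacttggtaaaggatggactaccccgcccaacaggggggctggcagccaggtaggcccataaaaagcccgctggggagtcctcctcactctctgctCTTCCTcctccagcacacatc
Ackr1: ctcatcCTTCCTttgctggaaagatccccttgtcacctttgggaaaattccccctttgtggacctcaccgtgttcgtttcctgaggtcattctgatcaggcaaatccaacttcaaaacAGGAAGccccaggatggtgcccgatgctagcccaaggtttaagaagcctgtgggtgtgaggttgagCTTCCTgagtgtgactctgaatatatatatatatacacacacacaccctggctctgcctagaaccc
Lrg1: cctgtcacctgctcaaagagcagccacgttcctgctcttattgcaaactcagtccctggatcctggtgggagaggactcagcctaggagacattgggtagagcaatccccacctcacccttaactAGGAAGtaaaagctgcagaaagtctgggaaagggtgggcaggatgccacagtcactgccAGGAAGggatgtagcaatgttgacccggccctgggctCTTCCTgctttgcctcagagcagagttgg
Each of the 3 promoters of the genes that were high together held 3 such matches and that of Cldn5 held 0. The 6 letters occur at least once, on either strand, in 29.5% of 32851 mouse promoters of the same length. How many promoters hold 3 matches was not counted, so the number of matches has no background here. For NF-kappa B only a single form of its core, of 10 letters, was searched, which occurs in 17.6% of promoters. That form and a STAT core, TTCNNNGAA, which occurs in 7.02%, were in none of the 4 on either strand. Other forms of the NF-kappa B core were not searched, so the absence of such sites from these promoters was not tested. The motifs were chosen with the promoters at hand, and a match of letters is no evidence of binding.

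Leukocyte adhesion genes met the rule against all other cells in 8 of 12 tested cases (median log2 ratio 2.51), and 9 of 11 were spread between the brains (6 of 11 in the cells of at most 8000 UMIs). Over all genes 1.59% met the rule and 14.1% were spread. In the cells of at most 8000 UMIs these shares were 3.24 and 11.2%, and 8 of 12 adhesion genes met the rule. Icam1 was at 3.02, 0.858, 3.47 and 0.675 in cluster 4, against 0.184, 0.265, 0.172 and 0.153 in all other cells. The selectin genes, which start leukocyte rolling, were rare: Selp was at 0.363, 0, 0.275 and 0.0519, and Sele at 0.0906, 0, 0.0735 and 0. Both had UMIs in the hashtag 1 and 3 brains and none in the hashtag 2 brain. Sele had 7 UMIs in all, and a count of 0 in the hashtag 2 brain allows up to 0.112. That is above both Sele levels seen, so its order of the brains is not resolved. The cytokine and acute phase list met the rule in 3 of 21 cases (Nfkbia, Ch25h and Cxcl12; median log2 ratio 1.21), and in 9 of 21 in the cells of at most 8000 UMIs. Between the brains 14 of 18 were spread, 6 each being highest with hashtag 1 and with hashtag 3. Without the deep cells 9 of 16 were spread, 2 highest with hashtag 1 and 6 with hashtag 3. Lcn2, Lrg1, Il1r1 and Ch25h of this list are also in the vein list, as are Ackr1, Vcam1 and Icam1 of the adhesion list. The counts of these lists thus rest in part on the same genes. The NF-kappa B inhibitor gene Nfkbia was at 19.6, 8.31, 16.3 and 7.05, against 2.53, 2.38, 2.73 and 2.68. The neutrophil chemokine gene Cxcl1 was at 2.87, 0.373, 3.10 and 0.467, against 0.191, 0.287, 0.0979 and 0.0995. Icam1, Nfkbia and Cxcl1 were higher with hashtags 1 and 3 than with hashtags 2 and 4. Without the deep cells the same order held for Cxcl1 (4.30, 0.629, 5.99 and 1.93), Icam1 (4.62, 1.32, 6.52 and 2.11) and Nfkbia (27.7, 12.4, 25.8 and 18.9).

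Of 30 interferon-induced genes 1 met the rule against all other cells, Ifitm1, against 1.59% of all genes (median log2 ratio of the list 0.83). With only the cells of at most 8000 UMIs on the cluster 4 side 5 of 30 met it, against 3.24% of all genes. Between the brains 9 of 26 were spread, against 14.1% of all genes, and in the cells of at most 8000 UMIs 6 of 23, against 11.2%. Ifitm1 was at 1.09, 0.485, 3.03 and 1.49 in cluster 4, against 0.480, 0.159, 0.380 and 0.265 in all other cells, and at 1.52, 0.629, 4.62 and 4.85 in the cluster 4 cells of at most 8000 UMIs. Cxcl10, the chemokine that the title of the series names, was at 0.393, 0.373, 0.129 and 0.337, against 0.105, 0.0885, 0.120 and 0.211, and over clusters it was highest in cluster 3, at 2.19. At equal depth 4.17, 5.36, 2.47 and 3.49% of cluster 4 cells held a Cxcl10 UMI, against 1.03, 1.46, 0.552 and 0.495% in cluster 1. Of 18 MHC genes 2 met the rule (H2-Q4 and H2-Q7; median log2 ratio 0.38), and 4 of 18 in the cells of at most 8000 UMIs. Between the brains 5 of 16 were spread (3 of 15 in the cells of at most 8000 UMIs). Lower by the same measure over all cells was 1, the class II invariant chain gene Cd74, at 1.99, 1.27, 0.881 and 0.974 against 5.35, 7.43, 3.35 and 3.31. The class I light chain gene B2m was at 24.6, 24.3, 19.2 and 19.4, against 10.1, 7.99, 15.9 and 17.8.

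Immediate early genes, which answer stimuli and tissue dissociation within minutes, gave the most one-sided list. Of 16 tested, 14 were spread and all 14 were highest in the hashtag 1 brain, against 3.94% of all genes that were spread and highest there. Without the deep cells 10 of 16 were spread, again all highest in that brain, against 2.17%. Fos was at 20.1, 15.1, 9.18 and 5.21 in cluster 4, against 7.54, 10.1, 2.73 and 2.49 in all other cells. Jun was at 10.5, 6.79, 4.02 and 3.54, against 2.43, 3.09, 1.35 and 1.51. Fos was also lower in all other cells of the hashtag 3 and 4 brains than in those of the hashtag 1 and 2 brains. The flow-induced factor genes followed the same order: Klf2 was at 21.3, 18.6, 8.26 and 8.20, against 2.104, 2.33, 3.34 and 4.42, and Klf4 at 3.72, 2.87, 1.47 and 0.805. In the cells of at most 8000 UMIs Klf2 was at 29.1, 27.6, 13.3 and 13.2, again highest in the hashtag 1 brain. The shear stress list had 3 of 8 genes past the rule against other cells, against 1.59% of all genes (median log2 ratio 1.55). In the cells of at most 8000 UMIs it had 5 of 8, against 3.24%. It had 4 of 7 spread, also in the cells of at most 8000 UMIs, against 14.1 and 11.2% of all genes.

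The surface tags gave a measure outside the genes that made the clusters. Each antibody carried an oligonucleotide that was read with the cells, as did each hashtag antibody. The CD45 tag and the 4 hashtags, by which each cell was assigned to its brain, are shown with all bases in lower case:
CD45: tggctatggagcaga
hashtag 1: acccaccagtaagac
hashtag 2: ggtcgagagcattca
hashtag 3: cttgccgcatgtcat
hashtag 4: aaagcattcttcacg
CD45, the surface protein of blood cells, gave a median of 43, 45, 47 and 45 tag counts in cluster 4 cells of the hashtag 1 to 4 brains. In cluster 1 the medians were 39, 37, 38 and 42.5, in cluster 9 40.5, 33, 56 and 45, and in clusters 3 and 6 together 2336, 5024, 6890 and 7087. Endothelial cells thus had CD45 counts near those of clusters 1 and 9 and far below those of clusters 3 and 6. The within-brain difference in log2(median tag count + 1) between cluster 4 and cluster 1 was 0.14, 0.28, 0.30 and 0.08, higher in 4 of 4 brains, with an exact two-sided sign-flip permutation p = 0.125, the smallest that 4 brains allow, and an adjusted p of 1 over 12 comparisons. Between cluster 4 and cluster 9 it was 0.08, 0.44, -0.25 and 0 (exact permutation p = 0.75, adjusted p of 1). The other 10 comparisons, of CD11b, CD86, CD3e, CD4 and CD25, also had an adjusted p of 1, and the design could not reach 0.05 for any. The median counts in cluster 4 were 43 for CD11b, 11 for CD86, 9 for CD4, 7 for CD25 and 1 for CD3e.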

How the data were processed

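Transcripts, 6 antibody tags and 4 hashtags were measured in 1 pool of cells on a 10x 3' v2 platform, per the labels. Per the submitters' processing notes Cell Ranger 2.1, Seurat 2.3.4 and mm10 were used, with no role given. The deposited expression table holds natural log values scaled per cell. The UMI counts were recovered from it with the deposited UMI count of each cell, and 99.8% of the values above 0 came out whole within 0.01. The deposited cell table also gave the clusters, the hashtag classes and the mitochondrial fraction of each cell. The deposited antibody and hashtag values are whole numbers with no stated unit and were taken as tag counts, since the design text of the series names CITE-seq-Count. Counts of 17551 genes in 4668 cells were summed by cluster and brain with Python 3.11.15, NumPy 2.4.6, SciPy 1.17.1, pandas 2.3.3 and Matplotlib 3.10.9. Intervals are exact at 95% (Poisson for levels, Clopper-Pearson for shares) and cover counting error only. The brain is the replicate, and the labels give no condition for a hashtag, so tests were made only within brains, on the tags. Folds add 0.1 per 10000 to both levels. A list's median log2 ratio is over its members' means across the 4 brains. For thinning each cell was sampled down to 2507 UMIs. No doublet caller was run. The genes named are members of 20 lists (306 distinct genes, 301 measured), and the 10 first genes by fold over all other cells, by fold over cluster 9, by distance between the brains and by level outside mitochondrial and ribosomal protein genes. 1 gene that this rule takes is not reported here. Some genes stand in more than 1 list (349 list entries). The members and lists were chosen with earlier results of these data known. Clusters 1 and 9 were named from marker lists. Alternatives were other folds, added values, count minimums, scalings and subsets of cells, and leaving out each brain. The scripts were tested on simulated data.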

Additional observations from a re-analysis of the deposited data

How the results depend on the processing

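The median Cldn5 level over the brains, 19.0 per 10000, was 25.5 as a mean over cells, 29.7 in cells with at least 80% of their own hashtag, 27.8 in cells of at most 8000 UMIs, 29.6 in cells with at most 1 UMI of Rhox5 and of Krt8, and 18.12 to 19.97 with each brain left out. The last 2 subsets of cells were chosen after seeing the data, here and below. Lcn2 in the hashtag 3 brain, 57.7, was 102, 82.7, 126 and 79.6 under the same 4 settings and 137 without cells holding 2 UMIs of mural or immune markers. The 225 genes higher than in all other cells became 60 at 4-fold, 70 with 0.5 per 10000 added, 456 with cells of at most 8000 UMIs, and 237 to 340 with each brain left out, 340 without the hashtag 4 brain. The 1087 spread genes became 543 at a minimum of 100 UMIs, 536 in cells of at most 8000 UMIs, 680 with the Rhox5 and Krt8 limit, and 456 to 812 with each brain left out, 456 without the hashtag 4 brain. The median share of 7.19% became 70.1% when taken of clusters 4 and 9. The brain with the highest level was the same under all 7 alternatives for Lcn2, Ackr1, Lrg1, Ctla2a, Gkn3, Klf2 and Fos, and under 4 of 7 for Cldn5. Tag differences, none of which could pass the test, changed sign as follows. Against cluster 9, CD45 (0.042) was -0.52 as a mean of logs, -0.088 as a share of tags and -0.28 at 8000 UMIs or fewer; CD11b was 0.013 as a share of tags, 0.0082 at 8000 UMIs or fewer and -0.063 to 0.032 with a brain left out. CD86 was 0.24 as a share of tags. CD4 was -0.029 as a mean of logs, -0.15 at 8000 UMIs or fewer and -0.087 to 0.13 with a brain left out. CD25 was 0.12 as a mean of logs and 0.31 as a share of tags. Against cluster 1, CD11b was -0.044 as a mean of logs, -0.031 as a share of tags and -0.032 to 0.12 with a brain left out, and CD86 was -0.066 as a share of tags. The cause of these changes was not tested. The tag differences were paired within each brain, and no fit with a replicate number was made, since the labels give none. With 4 brains of unmapped condition and 1 cDNA library, no difference between brains can be set against variation between animals.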

Other observations

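Of 16 genes of coagulation and vessel tone 5 were at least 2-fold higher in cluster 4 than in all other cells in each brain (Vwf, Thbd, Plat, Nos3 and Edn1; median log2 ratio 0.96), and 7 of 14 were spread between the brains (5 of 13 in the cells of at most 8000 UMIs). Over all genes 1.59% were higher and 14.1% spread (11.2% in the cells of at most 8000 UMIs). Plat, the gene of tissue plasminogen activator, was at 1.21, 1.08, 2.94 and 0.675 per 10000 in cluster 4 of the hashtag 1 to 4 brains, against 0.114, 0.0973, 0.127 and 0.152 in all other cells. Thbd, the gene of the anticoagulant receptor thrombomodulin, was at 1.15, 0.932, 0.294 and 0.208, against 0.0746, 0.0442, 0.0181 and 0.0216. Plat was highest in the hashtag 3 brain and Thbd in the hashtag 1 brain, and in the cells of at most 8000 UMIs Thbd was at 1.48, 1.51, 0.484 and 0.351.

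Of 15 basement membrane genes 3 were higher than in all other cells (Col4a2, Sparcl1 and Fn1; median log2 ratio 0.97) and 5 of 14 were spread, 4 of them highest in the hashtag 3 brain. In the cells of at most 8000 UMIs 5 of 11 were spread, with 1 highest with hashtag 2, 2 with hashtag 3 and 2 with hashtag 4. There, 6 of 15 were higher than in all other cells. Over all genes 1.59% were higher, and 3.24% with only those cells. The collagen IV gene Col4a1 was at 1.33, 1.64, 3.84 and 1.96 in cluster 4, against 0.254, 0.279, 0.829 and 0.940 in all other cells. Of 15 hypoxia and glycolysis genes 2 were higher (Epas1 and Slc2a1; median log2 ratio 0.23) and 2 of 15 were spread (2 of 11 in the cells of at most 8000 UMIs), near the share over all genes. Epas1, which encodes the hypoxia factor HIF-2 alpha, was at 2.78, 3.50, 3.14 and 1.31, against 0.419, 0.447, 0.135 and 0.141. Of 16 cell cycle genes 1 was higher, the cell cycle inhibitor gene Cdkn1a, at 3.54, 3.69, 4.10 and 2.97 against 0.785, 0.880, 1.40 and 1.27 (median log2 ratio of the list -0.19). Of 15 tested, 5 were spread, all highest in the hashtag 4 brain, and 0 of 5 tested in the cells of at most 8000 UMIs.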
